A study of Homo sapiens with 4 samples.

Results

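The histone genes were taken from the gene table by their symbols, and the replication-dependent genes were set against the replacement genes. The name rule kept the symbols of the linker histones (H1), of the clustered core histones (H2AC, H2BC, H3C and H4C) and of the replacement histones H2AX, H2AZ, H2AJ and H3-3. Of the 39323 gene symbols in the table, 78 were analysed by this rule. Of these, 66 were replication-dependent histone genes: 6 of H1, 16 of H2A, 17 of H2B, 13 of H3 and 14 of H4. Another 7 were replacement genes (H1-10, H2AJ, H2AX, H2AZ1, H2AZ2, H3-3A and H3-3B), and 2 were the germline linker histones H1-7 and H1-8. The remaining 3 symbols, H1-10-AS1 (an antisense transcript), H2AZ1-DT (a divergent transcript) and H1-9P (a pseudogene), are no histone genes and were kept apart.

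The libraries came from RD and JR1, established lines of fusion-negative rhabdomyosarcoma (FN-RMS), a childhood tumor of the skeletal muscle lineage. Each line carried a lentiviral short hairpin RNA, either shSCR, a non-targeting control, or shSKP2.2, directed at SKP2. There was 1 library for each line and hairpin, so 4 in all. All 4 libraries shared the lentiviral vector and its puromycin selection, both lines carry mutated p53, and uninfected cells were not analysed here. SKP2 is the F-box protein through which the SCF ubiquitin ligase recognizes inhibitors of cyclin-dependent kinases such as p27Kip1. Knockdown rested on a single hairpin, and the time from infection to harvest is not given in the sources used here.

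Histone mRNAs fall into classes that are made in different ways. The replication-dependent genes lie in clusters, lack introns and are transcribed in S phase, when newly copied DNA has to be packed. Their mRNAs end in a short hairpin instead of a poly-A tail: the stem-loop binding protein SLBP and the U7 snRNP direct a cut just behind it, and the same hairpin directs the rapid decay of the mRNA when replication ends. The replacement genes lie apart from the clusters, their mRNAs carry poly-A tails, and they are expressed in and outside S phase. Some replication-dependent genes can also give longer mRNAs that run past the hairpin and end in a poly-A tail, which is known above all in cells that have left the cell cycle and differentiated.

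The libraries were selected for poly-A RNA, so the hairpin and what lies behind it bear on how these mRNAs can enter a library. In the genome, a stem-loop of 16 bases, with arms of 6 bases and a loop of 4, was found behind the stop codon of 66 of the 66 replication-dependent genes, 23 to 68 bases past it (median 36). The search covered 200 bases past the stop codon and allowed 1 position of the arms without a Watson-Crick pair. In replacement genes it ran on to just past the annotated gene end where this lay farther. A stem-loop had to begin with GG, end with CC and have T as the first base of the loop, so these letters were fixed by the search. Of the 7 replacement genes analysed only H2AX held such a stem-loop. The following 26-base stretches show the most abundant gene of each type. They also show the gene with the largest listed fall in each line (H4C4 in RD and H4C14 in JR1). The value of H4C14 cannot be separated from that of H4C15. Further ones are the H2B gene with the smallest changes (H2BC21), H2AC15 and H2AX. In H2AC15, as in H2AC11 (not shown), a T faces a G at 1 position of the arms in place of a Watson-Crick pair. The stretches are read 5′ to 3′ from GRCh38, with the arms in capitals. The coordinates are those of the 16 bases of the hairpin.
H1-4 (chr6:26157095-26157110, plus strand): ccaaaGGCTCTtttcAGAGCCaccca
H2AC18 (chr1:149842223-149842238, minus strand): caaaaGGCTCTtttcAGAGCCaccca
H2BC12 (chr6:27146366-27146381, minus strand): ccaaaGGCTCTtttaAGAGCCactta
H3C15 (chr1:149853105-149853120, plus strand): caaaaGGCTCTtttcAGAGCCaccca
H4C15 (chr1:149860769-149860784, minus strand): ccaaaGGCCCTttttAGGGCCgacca
H4C4 (chr6:26188715-26188730, minus strand): ccaacGGCCCTtttcAGGGCCaccta
H4C14 (chr1:149833032-149833047, plus strand): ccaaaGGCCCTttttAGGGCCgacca
H2BC21 (chr1:149886188-149886203, minus strand): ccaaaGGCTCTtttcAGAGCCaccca
H2AC15 (chr6:27837885-27837900, minus strand): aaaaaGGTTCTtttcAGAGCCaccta
H2AX (chr11:119094898-119094913, minus strand): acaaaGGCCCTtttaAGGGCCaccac
The 66 genes shared 10 distinct stem-loops, and the most frequent, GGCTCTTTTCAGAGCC, was found in 38 genes. The left arm was GGCCCT in all 14 H4 genes and in no other replication-dependent gene. It was GGCTCT in every H1, H2B and H3 gene and in 15 of the 16 H2A genes, with H2AC15 as the exception.

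Levels are given in TPM, the share of a library's transcripts held by a gene after fragments are divided by transcript length, and always in the order RD shSCR, RD shSKP2.2, JR1 shSCR and JR1 shSKP2.2. A change compares shSKP2.2 with shSCR within a line: 1 was added to both TPM values and the log2 of their ratio taken, which understates the change of low genes. Genes whose mean over all 4 libraries reached 1 TPM were taken as measured (12985 genes), and a gene was called lower or higher when its change reached 1 on the log2 scale. With 1 library per condition there is no spread between replicates, so no difference given here was tested, and TPM files do not keep the depth of a library. SKP2 itself stood at 92.8, 7.4, 46.5 and 2.72 TPM, and its changes were -3.48 and -3.67. Of 6 markers of the muscle lineage, MYOD1, MYOG, DES, CDH15 and CHRNA1 were between 31.6 and 425 TPM in all libraries, and MYF5 was listed at 0 in all of them. MYOG, an early gene of myogenic differentiation, was at 31.6, 58.4, 53.97 and 107 TPM, with larger values under shSKP2.2 in either line that did not reach the limit.

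The replication-dependent histone genes were lower after SKP2 knockdown in both lines. Of the 66 genes, 62 were measured. In RD all 62 lay below 0, 58 were called lower and 0 higher, with a median change of -1.61. In JR1 all 62 lay below 0, 53 were called lower and 0 higher, with a median of -1.54. Among all 12985 measured genes, 9738 lay below 0 in RD, 7.37% were called lower and 1.08% higher, with a median of -0.27. In JR1, 8943 lay below 0, 9.05% were called lower and 1.78% higher, with a median of -0.21. In both lines together 52 of the 62 genes were called lower, against 4.79% of all measured genes. The lines share no library, but each knockdown library was compared with a single control. In bulk RNA, fewer cells in S phase and less histone mRNA per cell cannot be told apart.

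**Figure D1:**
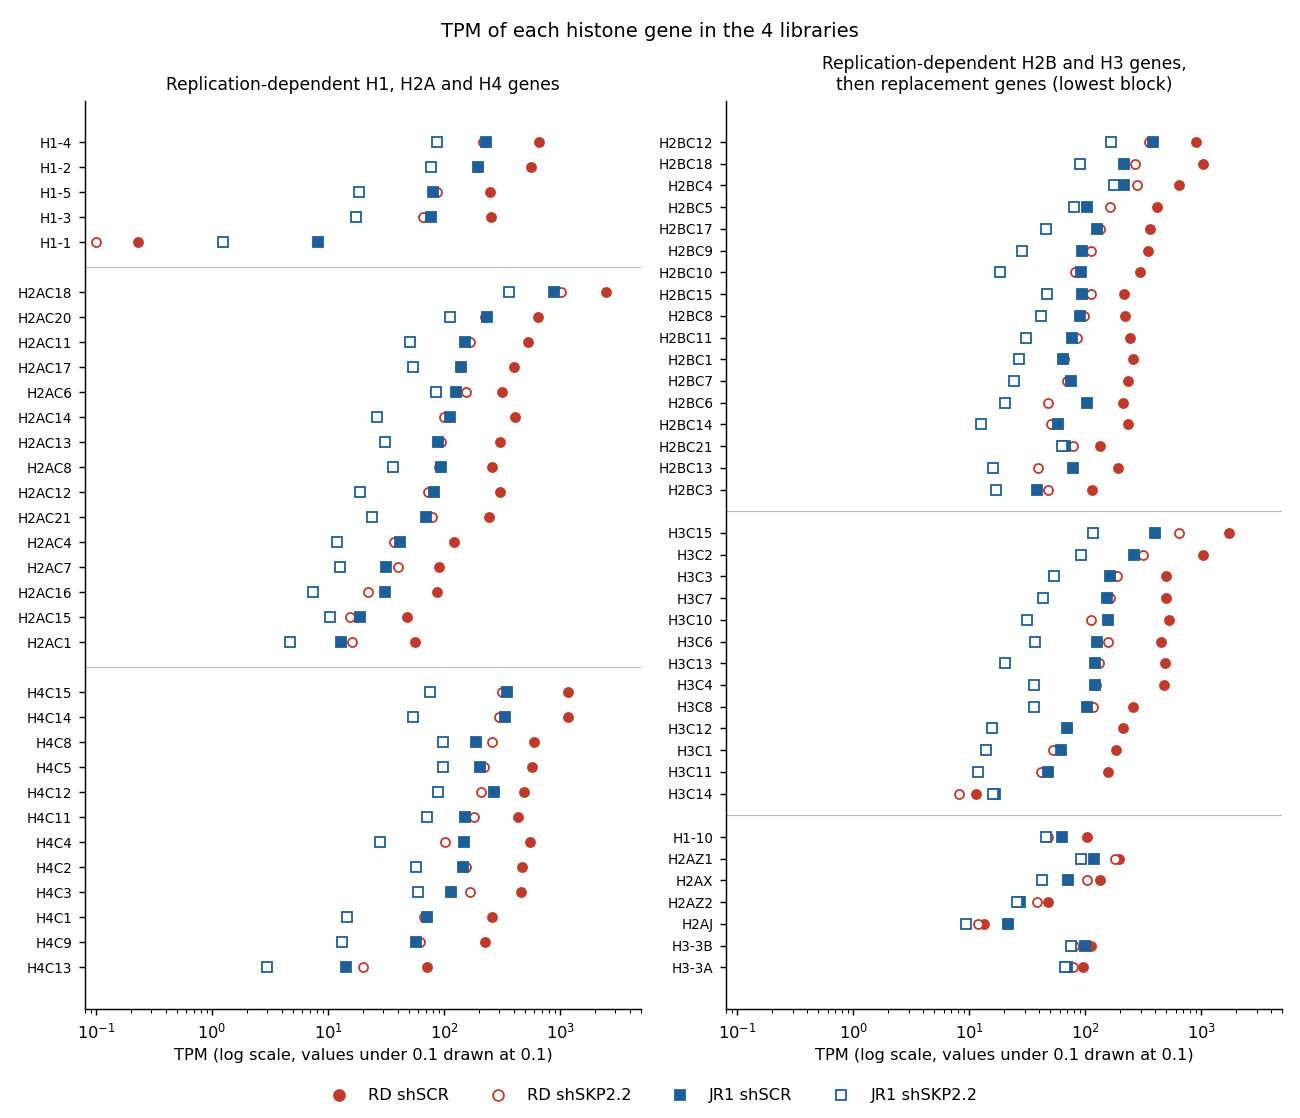
TPM on a log scale for the 62 measured replication-dependent and the 7 replacement histone genes, 1 point per library; red circles are RD, blue squares JR1, filled symbols shSCR and open symbols shSKP2.2. The filled red circle is farthest right for all replication-dependent genes except H1-1 and H3C14, while the points of most replacement genes lie close together.

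Summed over the class, the replication-dependent genes stood at 27050.0, 9093, 8551 and 3133 TPM, and the replacement genes at 700, 539, 469 and 357 TPM. The sum of the replication-dependent class was thus 2.97-fold lower with shSKP2.2 in RD and 2.73-fold lower in JR1. The sum of the replacement class was 1.299-fold and 1.312-fold lower. The ratio of both sums, which does not move with the scaling of a library, was 38.7, 16.9, 18.2 and 8.77. It was 2.29-fold lower with shSKP2.2 in RD and 2.08-fold lower in JR1. RD cells with shSKP2.2 and JR1 cells with shSCR stood close to each other in this ratio. The ratio can still differ between libraries with fragment length and with how much RNA without a tail passed the selection. Neither was measured.

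Much of each library was taken up by short structural RNAs, which also lack a poly-A tail. The 1121 genes of such RNAs held 58.6%, 69.1%, 66.5% and 72.1% of the TPM in the usual order of libraries. RN7SL1, the RNA of the signal recognition particle, was at 196610.0, 238375, 206815 and 216178 TPM. RN7SK, a regulator of transcription elongation, was at 170825, 208604, 203514 and 254369 TPM. Both RNAs thus had higher values under shSKP2.2 in either line, while the replication-dependent histone genes had lower ones. How much RNA without a tail passed the selection in each library was not measured, and its part in the histone levels was not tested. After these genes were removed and the TPM rescaled, the replication-dependent class made up 6.54%, 2.94%, 2.55% and 1.12% of the remaining TPM, a difference of 2.22-fold in RD and 2.27-fold in JR1. The replacement class made up 0.169%, 0.174%, 0.140% and 0.128%, which is 1.03-fold higher with shSKP2.2 in RD and 1.09-fold lower in JR1. On this scale all 62 replication-dependent genes remained below 0 in RD and 44 were called lower, against 3.46% of 15217 measured genes. In JR1, 60 remained below 0 and 46 were called lower, against 7.5%, and H2BC21 (0.16) and H3C14 (0.20) lay above 0. The median of all measured genes on this scale was 0.12 in RD and 0.01 in JR1.

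**Figure D2:**
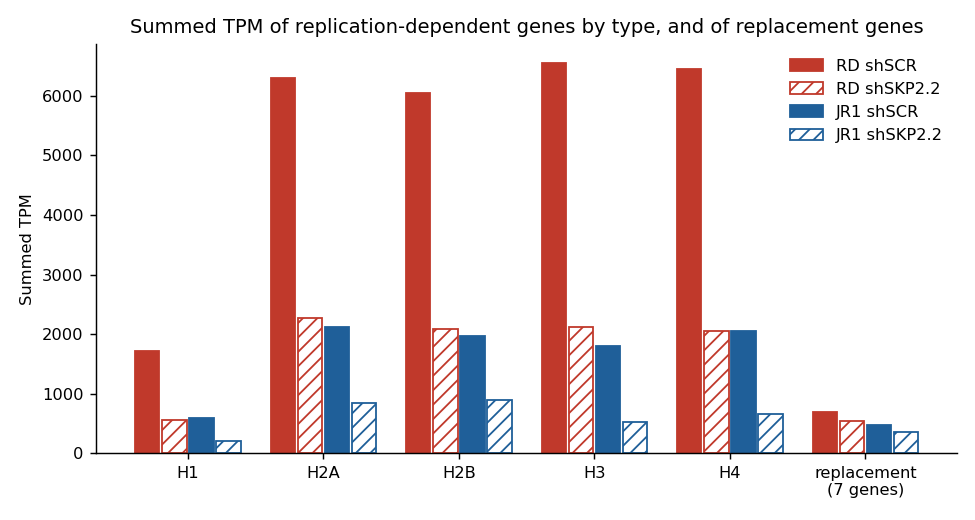
Summed TPM (linear scale from 0) of the replication-dependent genes of each histone type and of the 7 replacement genes in the 4 libraries; filled bars are shSCR and hatched bars shSKP2.2, red for RD and blue for JR1. In each type the RD shSCR bar is the highest and the JR1 shSKP2.2 bar the lowest, and the RD shSKP2.2 and JR1 shSCR bars stand close to each other.

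The difference was present in every type of histone. The nucleosome holds the core histones H2A, H2B, H3 and H4 in equal number, and H1 binds the linker DNA. In RD shSCR the core types summed to 6289.9, 6052, 6539 and 6453 TPM in that order, and the H1 genes to 1716 TPM. In JR1 shSKP2.2 they summed to 845, 902, 524 and 660 TPM, with 202 TPM for H1. In RD the sums were between 2.77-fold (H2A) and 3.13-fold (H4) lower with shSKP2.2. In JR1 they were between 2.18-fold (H2B) and 3.45-fold (H3) lower. Median changes were -1.53 in RD and -2.05 in JR1 for H1, -1.63 and -1.36 for H2A, -1.51 and -1.25 for H2B, -1.61 and -1.78 for H3, and -1.69 and -1.77 for H4. The 52 measured genes on chromosome 6 (medians -1.61 and -1.56) and the 10 on chromosome 1 (-1.57 and -1.42) were alike.

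Among the linker histone genes, 4 of 5 measured were called lower in both lines. H1-4 (chr6:26156329-26157115) was the most abundant, at 652, 215, 231 and 87.5 TPM. H1-2 was at 559.6, 197, 195 and 76.9 TPM. Both changed by about the same amount in either line, -1.59 and -1.50 in RD and -1.39 and -1.33 in JR1. H1-5 was at 249.6, 86.01, 80.8 and 18.7 TPM and H1-3 at 252, 66.2, 76.8 and 17.4 TPM, and in JR1 these changed by -2.06 and -2.08. H1-1 stood apart. It was at 8.26 and 1.24 TPM in JR1, a change of -2.05, but at 0.23 TPM in RD shSCR and listed at 0 in RD shSKP2.2, so that its change of -0.30 in RD rests on almost no signal. H1-6, a linker histone of the testis, was not measured, with at most 2.94 TPM.

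All 15 measured H2A genes were called lower in RD, and 13 of them in JR1. H2AC18 (chr1:149842218-149842750) was the highest of all histone genes in each library, at 2469, 1019.6, 893 and 359 TPM, a change of -1.28 in RD and -1.31 in JR1. Its value cannot be separated from that of H2AC19, which lies in the same cluster on chromosome 1. All 150-base windows of H2AC18 have an exact copy in H2AC19, and H2AC19 was listed at 0 in every library. H2AC20 was at 648, 226, 234 and 113 TPM and H2AC11 at 528, 167, 151 and 51.02 TPM. Both were lower by at least 1 in either line. H2AC17 was at 398, 137, 139 and 53.7 TPM, H2AC14 at 412, 100.5, 112 and 26.5 TPM and H2AC13 at 304, 93.3, 88.9 and 30.7 TPM. Of these H2AC14 had the larger change, -2.02 in RD and -2.04 in JR1, and it shares 56.0% of its windows with H2AC13. H2AC12, at 302, 72.1, 81.6 and 18.8 TPM, had the largest change of the H2A genes in both lines, -2.05 in RD and -2.06 in JR1.

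Other H2A genes were at lower levels. H2AC8 was at 260.5, 90.9, 94.02 and 35.98 TPM and H2AC21 at 246, 78.6, 70.5 and 23.8 TPM. H2AC4 was at 121, 37.2, 41.97 and 11.99 TPM and H2AC7 at 91.2, 40.1, 31.7 and 12.7 TPM. H2AC16 was at 87.7, 22.01, 30.9 and 7.48 TPM and H2AC1, a gene best known from the testis, at 56.1, 16.2, 12.99 and 4.74 TPM. These genes kept the order of the class, with RD shSCR highest and JR1 shSKP2.2 lowest. The genes that missed the limit in JR1 were H2AC15, at 48.2, 15.3, 19.02 and 10.5 TPM with a change of -0.80 in that line, and H2AC6, at 318, 155, 127 and 84.4 TPM with a change of -0.59.

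Of the 17 H2B genes, all measured, 15 were called lower in RD and 13 in JR1. H2BC12 was at 894, 351, 381 and 167 TPM and H2BC18 at 1035, 266, 214 and 89.3 TPM. H2BC18 differed most between the control lines, with a log2 ratio of 2.27 of RD over JR1. It overlaps FCGR1A, and whether the counting used the strand is not given in the sources used here. The largest changes in JR1 were those of H2BC6, at 213, 47.9, 104 and 20.4 TPM (-2.13 in RD and -2.29 in JR1), and H2BC10, at 296, 81.2, 91.2 and 18.3 TPM (-1.85 in RD and -2.25 in JR1). The largest in RD was that of H2BC13, at 189.6, 39.2, 78.2 and 15.95 TPM (-2.25 in RD and -2.22 in JR1). These 3 genes all fell at least 3-fold on the TPM scale in each line.

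In between, H2BC17 was at 364, 133, 125 and 45.8 TPM and H2BC9 at 346, 111, 92.9 and 28.4 TPM. H2BC8 was at 219.6, 98.3, 90.2 and 41.7 TPM and H2BC11 at 243, 84.9, 76.4 and 30.6 TPM. H2BC1, known from the testis, was at 258, 65.1, 64.7 and 26.6 TPM and H2BC7 at 234, 69.2, 75.5 and 24.3 TPM. All 6 were called lower in both lines. H2BC14 was at 231, 51.01, 58.3 and 12.5 TPM, H2BC3 at 114, 47.8, 38.04 and 17.1 TPM and H2BC15 at 217, 112, 93.3 and 47.01 TPM. Of these H2BC15 was just short of the limit, at -0.95 in RD and -0.97 in JR1.

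The smallest differences among the H2B genes were in JR1. H2BC21 (chr1:149884459-149886682) was at 134, 78.9, 67.3 and 62.8 TPM, a change of -0.75 in RD and -0.10 in JR1. H2BC4 (chr6:26113170-26123926) was at 647, 279.7, 215 and 175 TPM, -1.21 in RD and -0.30 in JR1. H2BC5 (chr6:26158008-26171349) was at 416, 164, 104 and 79.2 TPM, -1.34 in RD and -0.39 in JR1. In these 3 genes the JR1 libraries were close to each other, whereas RD shSKP2.2 was clearly under RD shSCR for H2BC4 and H2BC5.

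Of the 13 H3 genes, 12 were called lower in both lines. H3C15 (chr1:149852608-149853125) was at 1746, 641, 402 and 116 TPM, a change of -1.44 in RD and -1.78 in JR1. H3C14, the exception, was at 11.4, 8.19, 16.6 and 15.95 TPM, a change of -0.43 in RD and -0.06 in JR1. The windows of H3C15 are copied whole in H3C14, so the division of fragments between both genes is uncertain, and neither value should be read alone. H3C2 was at 1039.8, 317, 265 and 92.6 TPM, H3C3 at 496, 187, 163 and 54.1 TPM and H3C7 at 496, 162, 153 and 43.4 TPM. In each the RD shSKP2.2 library was near the JR1 shSCR library. H3C10, at 528, 112, 156 and 31.3 TPM, had the largest change in RD and H3C13, at 491, 131, 120.4 and 20.4 TPM, the largest in JR1 (-2.51). Of the windows of H3C13, 13.8% are copied in other genes, and 8.1% in H3-2. H3C6 was at 448, 158, 125 and 36.8 TPM and H3C4 at 473, 124, 121 and 35.8 TPM. H3C4 overlaps H2AC7 in the annotation. H3C8 was at 257, 116, 104 and 35.8 TPM, H3C12 at 212, 68.9, 69.7 and 15.6 TPM and H3C1 at 183, 52.3, 61.7 and 13.99 TPM. H3C11 was the lowest of the H3 genes called, at 158, 41.4, 47.5 and 11.98 TPM.

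By the listed values the H4 genes held the largest change of the whole class in either line. H4C4 (chr6:26188710-26189112) was at 549, 102, 149.7 and 28.1 TPM, -2.42 in RD and -2.37 in JR1, the largest in RD. H4C14 (chr1:149832657-149833052) was at 1163, 296, 335 and 53.9 TPM, -1.97 in RD and -2.61 in JR1, the largest in JR1. Its windows are all copied in H4C15, which was at 1174, 317, 351 and 75.5 TPM, so the division of fragments within the pair is uncertain. The rank of H4C14 in JR1 is uncertain with it, and the next largest change there was that of H3C13 (-2.51). H4C11 and H4C12 also share most of their sequence (88.8% and 89.5% of windows). H4C12 was at 486, 207, 271 and 88.4 TPM and H4C11 at 431, 182, 152 and 71.9 TPM. All 12 measured H4 genes were called lower in RD, and 10 in JR1.

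The 2 H4 genes that missed the limit in JR1 were close to it. H4C8 was at 596, 260.4, 189 and 98 TPM and H4C3 at 457, 168, 115 and 59.1 TPM, with changes of -0.94 and -0.95 in that line. H4C5 was at 571, 222, 203 and 97.4 TPM and H4C2 at 471, 154, 146 and 57.2 TPM. The lower H4 genes were called in both lines. H4C1 was at 261, 67.5, 71.9 and 14.5 TPM, H4C9 at 223, 62.1, 57.4 and 13.3 TPM and H4C13 at 71.04, 20.1, 14.3 and 2.98 TPM. H4C6 and H4C7 were listed at 0 in all libraries. Further genes overlap others in the annotation (H2BC12 with H4C9, H2AC1 and H2BC1 with SLC17A1, and, among the replacement genes, H1-10 with H1-10-AS1 and H2AJ with C12orf60), so their values are uncertain to that extent.

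**Figure D3:**
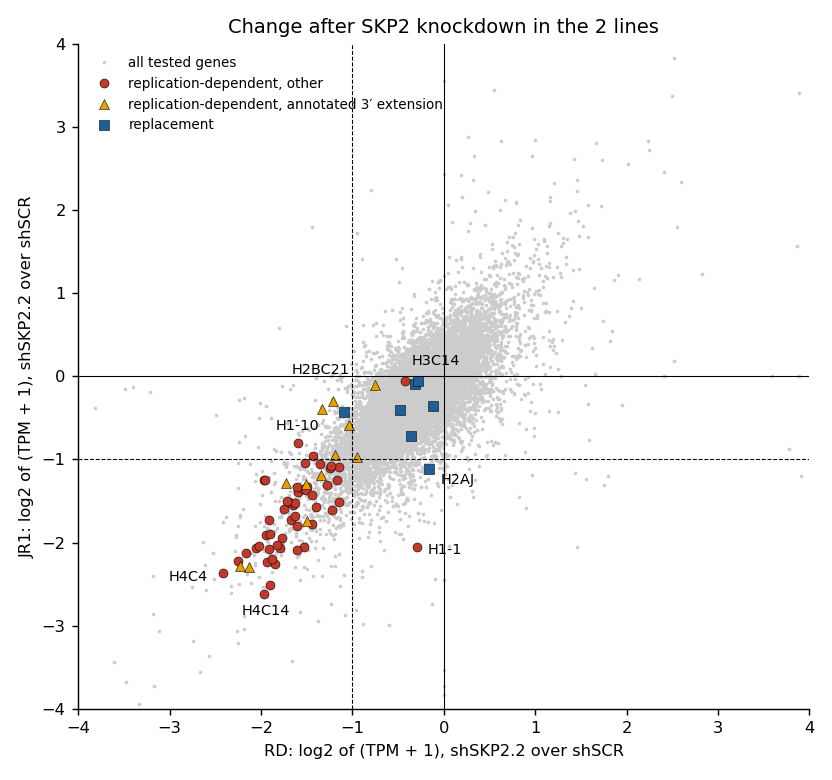
Change with shSKP2.2 in RD (horizontal) against JR1 (vertical), log2 of (TPM + 1) over shSCR, for the replication-dependent genes (red, and orange triangles where an annotated transcript runs on to a poly-A signal), the replacement genes (blue) and all measured genes (grey, 47 of them beyond the axes); dashed lines mark the limit of -1. The replication-dependent genes gather in the lower left, with 52 of 62 past the limit in both lines, and H2BC21, H3C14 and H1-1 lie apart from them.

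In 52 of the 62 measured replication-dependent genes the changes in RD and JR1 were within 0.5 of each other on the log2 scale. In 6 genes the change in RD was larger by more than 0.5, and in 4 genes that in JR1. This difference between the lines was not tested, and the share of all measured genes within 0.5 was not computed.

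The replacement genes were near the middle of all genes. Of the 7, 1 was called lower in each line, against the shares of 7.37% and 9.05% of all measured genes, and their medians were -0.31 and -0.40. H1-10, a linker histone outside the clusters, was at 104, 48.1, 62.8 and 46.3 TPM (-1.09 in RD and -0.43 in JR1). It was the gene called in RD and passed the limit narrowly. H2AJ was at 13.3, 11.8, 21.4 and 9.31 TPM and was the gene called in JR1 (-0.16 in RD and -1.12 in JR1).

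The other replacement genes of H2A and H3 missed the limit in both lines. H2AX, which is phosphorylated at DNA breaks, was at 133, 103, 70.4 and 42.6 TPM (-0.36 in RD and -0.71 in JR1). H2AZ1, a form of H2A found at promoters, was at 194, 178, 119 and 92.4 TPM and H2AZ2, its close relative, at 48, 38.4, 27.5 and 25.6 TPM. Their changes were -0.12 and -0.31 in RD and -0.36 and -0.10 in JR1. H3-3B and H3-3A encode the same protein, H3.3, which is placed in chromatin outside replication. H3-3B was at 111, 79.7, 98.8 and 74.5 TPM and H3-3A at 96.1, 78.9, 68.95 and 66.5 TPM. The H3-3A change was -0.28 in RD and -0.05 in JR1. All 7 genes lay below 0 in both lines in the deposited TPM, as did 9738 of all 12985 measured genes in RD and 8943 in JR1. Once the structural RNA genes were removed only 2 of the 7 lay below 0 in RD and 5 in JR1. Their RD median turned to 0.10, and none was called.

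RD and JR1 also differed before any knockdown. In the shSCR libraries 60 of the 62 replication-dependent genes were higher in RD than in JR1, and 58 of them by at least 1, against 6.5% of all measured genes called higher and 3.45% called lower. The median log2 ratio was 1.64, against 0.23 for all measured genes, and the class sums differed by 3.16-fold (2.56-fold without the structural RNA genes). Of all 12985 measured genes, 9268 were higher in RD than in JR1. In the class only H1-1 was called lower in RD, at -2.91. Of the replacement genes none was called, their median was 0.70 and their sums differed by 1.49-fold. In 35 genes the 4 libraries stood in the order RD shSCR, RD shSKP2.2, JR1 shSCR, JR1 shSKP2.2 from high to low, and in 25 genes RD shSKP2.2 and JR1 shSCR changed places. The comparison of lines uses the same shSCR libraries as the knockdown comparisons, so a high shSCR value in RD enters both.

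Genes with an annotated poly-A end past the hairpin had a smaller median change, mainly in JR1. The annotation of the table or of GENCODE v44 runs at least 50 bases past the stem-loop and ends within 50 bases of a poly-A signal (AATAAA or ATTAAA) in 12 genes: H2AC1, H2AC6, H2BC4, H2BC5, H2BC6, H2BC11, H2BC12, H2BC15, H2BC21, H3C6, H3C10 and H4C8. Their median changes were -1.34 in RD and -1.08 in JR1, with 10 and 6 genes called lower. In the other 50 measured genes the medians were -1.63 and -1.60, with 48 and 47 called. Grouped by any such extension, with or without a poly-A signal, 16 genes had medians of -1.50 in RD and -1.27 in JR1. The remaining 46 had -1.62 and -1.60, so the gap was smaller in both lines. This wider group adds H2AC8, H2BC18, H4C15 and H4C14, the last with the largest listed change in JR1. H2BC21, H2BC4, H2BC5 and H2AC6 are among the 5 genes with the smallest change in JR1, and the fifth is H3C14, whose reads are shared with H3C15. The 12 were not uniform, since H3C10 and H2BC6 were among the largest changes in either line (-2.23 and -2.13 in RD, -2.28 and -2.29 in JR1). In a gene-level TPM, tailed and untailed transcripts of a gene are summed, so the share of each was not measured. Most of the 12 are H2B genes, the type with the smallest median changes in both lines (-1.51 in RD and -1.25 in JR1). The grouping is thus mixed with histone type, and the part of either was not tested. These groupings were made with the values known and were not tested.

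Many H2A and H2B genes are arranged head to head and share the stretch between their start sites. There were 11 such pairs, with start sites 194 to 248 bases apart. In RD 9 of the pairs had both members called lower, and in JR1 8. Paired or not, 15 of the 15 measured H2A and 15 of the 17 H2B genes were called lower in RD. In JR1 it was 13 of the 15 and 13 of the 17. Both members were within 0.5 of each other on the log2 scale in 6 pairs in RD and in 8 pairs in JR1. The same count was not made for H2A and H2B genes that are not neighbours. The pair H2AC14 and H2BC14 moved closely together, -2.02 and -2.16 in RD and -2.04 and -2.13 in JR1. The pair H2AC20 and H2BC21 did not: -1.51 and -0.75 in RD, -1.04 and -0.10 in JR1. The bases between the start sites of both pairs are shown, read toward the H2B gene from the RefSeq promoter table of GRCh38.p14, with matches on either strand to the TATA box (TATAAA), the CCAAT box and the octamer (ATTTGCAT) in capitals.
H2AC14 to H2BC14 (chr6:27814778-27815021, plus strand): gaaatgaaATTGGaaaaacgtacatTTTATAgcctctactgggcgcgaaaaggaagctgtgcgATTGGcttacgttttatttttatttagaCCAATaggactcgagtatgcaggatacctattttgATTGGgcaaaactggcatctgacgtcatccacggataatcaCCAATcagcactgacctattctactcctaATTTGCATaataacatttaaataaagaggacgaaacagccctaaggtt
H2AC20 to H2BC21 (chr1:149886683-149886917, minus strand): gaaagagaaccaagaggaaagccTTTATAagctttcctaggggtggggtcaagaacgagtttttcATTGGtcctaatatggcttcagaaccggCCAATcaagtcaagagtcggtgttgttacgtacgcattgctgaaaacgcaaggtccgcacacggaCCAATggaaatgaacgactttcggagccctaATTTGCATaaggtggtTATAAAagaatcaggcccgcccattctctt
Either stretch holds all 3 motifs, and in both the octamer lies near the H2B gene. RefSeq promoter windows, from 250 bases before to 50 after the start, were found for 61 of the 66 replication-dependent genes. The octamer, which binds the transcription factor OCT1 (POU2F1), was in 11 of 15 H2A and 14 of 17 H2B windows. It was in 0 of 6 H1, 0 of 12 H4 and 1 of 11 H3 windows, the last being that of H3C4, whose window is the same as that of H2AC7. Over all 27305 promoter windows 1.80% held it. CCAAT was in all H1, H2A, H2B and H3 windows and in 3 of 12 H4 windows, against 35.7% of all. TATAAA was in 41 of the 61 windows, against 11.95% of all. The windows of a head-to-head pair overlap and so share matches.

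The genes that make, process and clear histone mRNA stood near the middle of all genes in both lines. The 8 genes of histone transcription had medians of -0.24 and 0.03 (0.12 and 0.28 without the structural RNA genes). Among them 1 was called lower in each line and none higher, against 7.37% of all measured genes called lower in RD and 9.05% in JR1. It was CDK2, the kinase that phosphorylates NPAT at the start of S phase, at 39.1, 12.99, 20.7 and 5.86 TPM (-1.52 in RD and -1.66 in JR1). NPAT, the coactivator of histone genes, was at 8.38, 7.6, 5.72 and 6.57 TPM and CASP8AP2, which resides with it in histone locus bodies, at 5.29, 3.67, 2.51 and 2.73 TPM. Neither reached the limit. HINFP, a factor that binds H4 promoters, was at 7.5, 12.1, 6.0 and 10.8 TPM and had the highest change of the list, 0.63 in RD and 0.75 in JR1.

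Of 15 genes of 3′ end processing, 1 was called lower in each line, against 7.37% of all measured genes in RD and 9.05% in JR1. It was SNRPD3, a shared protein of the snRNP ring, at 36.4, 15.9, 24.6 and 10.9 TPM (-1.15 in RD and -1.11 in JR1). No other gene was called. SLBP was at 35.1, 26.4, 25.3 and 18.2 TPM, a change of -0.40 in RD and -0.45 in JR1, which is under the limit. The list's medians were -0.39 in RD and -0.36 in JR1, and 0.01 and -0.10 without the structural RNA genes. The highest changes were those of NCBP1, a cap-binding protein, in RD (0.06) and of CSTF2, a cleavage factor, in JR1 (0.28). Of 7 genes of histone mRNA decay none was called, and the medians were -0.31 and -0.25. The lowest were EXOSC10, of the nuclear exosome, in RD (-0.89) and ERI1, a nuclease that trims the histone 3′ end, in JR1 (-0.72). TUT7, which adds uridines to mRNA ends, was the highest of this list in both lines (0.22 and 0.09).

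The chaperones that carry histones to chromatin mostly stayed under the limit, as did most of all measured genes. Of 13 genes that act at replication, 1 was called lower in RD and 2 in JR1, against 7.37% and 9.05% of all measured genes. Of the list, 13 lay below 0 in RD and 12 in JR1, as did 9738 and 8943 of all 12985 measured genes. Its medians were -0.55 and -0.49, against -0.27 and -0.21 for all measured genes. RBBP7, a subunit of the HAT1 complex that acetylates new H4, was at 47.3, 19.1, 22.9 and 10.8 TPM and was called in both lines (-1.27 in RD and -1.02 in JR1). TONSL, which reads new H4 behind the fork, was at 19.2, 10.7, 10.1 and 4.41 TPM and was called in JR1 (-1.03). The highest of the list were SUPT16H in RD (-0.27) and SSRP1 in JR1 (0.09), both subunits of FACT. Of 11 chaperones of replacement histones, 1 was called lower in each line, against 7.37% of all measured genes in RD and 9.05% in JR1. It was YEATS4, a subunit of the complexes that place H2A.Z, at 13.99, 5.7, 7.88 and 2.96 TPM (-1.16 in RD and -1.17 in JR1). UBN2, of the HIRA complex, was the highest in both lines (-0.02 and 0.35).

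The genes of DNA replication, which are expressed with S phase, lay between the histone classes. Of 15 genes, 5 were called lower in RD and 4 in JR1, against 7.37% and 9.05% of all measured genes, none was called higher, and the medians were -0.87 and -0.64. MCM5, a subunit of the replicative helicase, was at 38.96, 15.1, 15.1 and 5.55 TPM (-1.32 in RD and -1.29 in JR1). TYMS, which makes thymidylate, was at 111, 41.5, 32.1 and 12.6 TPM (-1.40 in RD and -1.29 in JR1). TK1, thymidine kinase, was at 73.6, 33.1, 34.1 and 12.5 TPM and CDC6, a licensing factor, at 28.3, 13.4, 13.2 and 4.59 TPM. These 4 genes were called in both lines. CDC45, another part of the helicase, had the lowest change in RD (-1.40), and the highest were MCM2 in RD (-0.46) and GINS2 in JR1 (-0.07). In the shSCR libraries 12 of the 15 genes were higher in RD than in JR1 by at least 1, against 6.5% of all measured genes, with a median log2 ratio of 1.32.

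**Figure D4:**
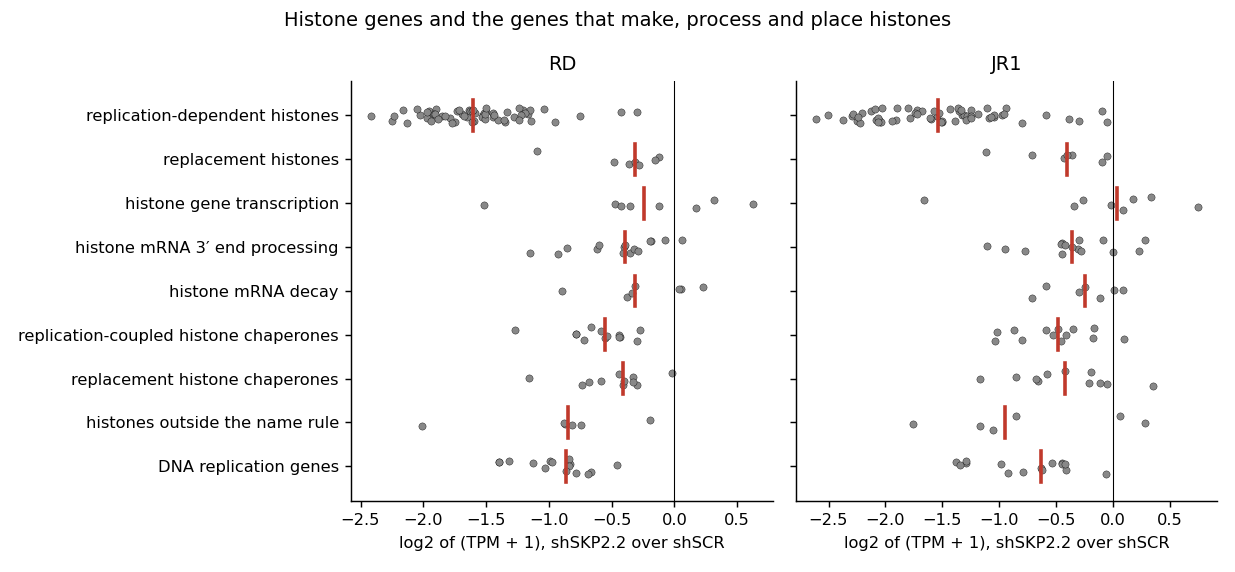
Change with shSKP2.2 (log2 of TPM + 1 over shSCR) in RD and JR1 for the replication-dependent and replacement histone genes and for the lists of genes around them; each grey point is a measured gene and the red bar is the median of the list. The replication-dependent genes have the lowest median in both panels (-1.61 and -1.54), and the DNA replication genes (-0.87 and -0.64) and the histones outside the name rule (-0.84 and -0.95) come next, in this order in RD and in the opposite order in JR1.

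Histone genes that the name rule did not take were split. Of 12 symbols listed, 8 were in the table and 6 were measured, with medians of -0.84 in RD and -0.95 in JR1. The symbols H2AC25, H2BC26 and H4C16 were not in the table. They are other names of H2AW, H2BU1 and H4-16, which were. H2BU1, a gene next to H2AW outside the main clusters, was at 150.3, 36.6, 69.95 and 20.01 TPM (-2.01 in RD and -1.76 in JR1), called lower in both lines. H4-16, which encodes the same H4 protein apart from the clusters, was at 205, 111, 146 and 64.2 TPM (-0.88 in RD and -1.17 in JR1), and H2AW was at 54.9, 29.6, 38.7 and 20.99 TPM (-0.87 in RD and -0.85 in JR1). CENPA, the H3 form of centromeres, was at 14.4, 8.22, 6.17 and 2.46 TPM and was called in JR1 (-1.05). MACROH2A1, a large H2A form of repressed chromatin, was at 69.6, 60.6, 40.5 and 49.4 TPM. MACROH2A2, its relative, was at 33.4, 18.5, 0.7 and 0.77 TPM, so that it was present in RD and near absent in JR1. Among the symbols that are no histone genes, H1-9P was at 0.23, 0.98, 3.19 and 4.11 TPM, and H1-10-AS1 did not exceed 0.89 TPM, H2AZ1-DT was listed at 0, and the germline genes H1-7 and H1-8 did not exceed 0.25 TPM.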

How the data were processed

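Poly-A RNA of both lines with either hairpin was sequenced, 1 library per line and hairpin. The authors made directional libraries (NEBNext Ultra II), used STAR 2.7.9a for alignment (GRCh38) and RSEM 1.3.2 for gene levels. The values deposited by the authors are TPM per gene, with no counts, so depth is unknown, and the annotation release and the strand setting are not given in the sources used here. TPM divides by an effective length, which for genes as short as these depends on the fragment length.

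Groups were taken from the sample labels. Changes were log2 ratios of TPM + 1, for genes whose mean reached 1 TPM, called at 1 on the log2 scale (Python 3.11.15, pandas 2.3.3). The code was checked on simulated data. Stem-loops, poly-A signals and copied 150-base windows were read from GRCh38 with GENCODE v44, and promoters from RefSeq. All 78 symbols analysed matched GENCODE, and 1 item that the name rule would take is not reported here. Structural RNA genes were taken by biotype or by symbol.

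Members and lists were chosen with earlier results of these data known. Named were every measured member, members of each list called in both lines, and the highest and lowest of each list. Alternatives were another pseudocount, filters, limit, centring, class of H2AX, and removal of structural RNA genes, of H2AC18 or of genes with copied sequence.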

Additional observations from a re-analysis of the deposited data

Results flagged for a closer look

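Among the measured histone genes and the measured genes of the lists, the changes of 9 had opposite signs in RD and JR1 after SKP2 knockdown. With 1 library per condition the difference between the lines was not tested, and none of these changes reached the limit of 1 on the log2 scale. NPAT changed by -0.13 in RD and 0.17 in JR1, and CASP8AP2 by -0.43 and 0.088. CSTF2 changed by -0.39 in RD and 0.28 in JR1, SSRP1 by -0.44 and 0.094, and UBN2 by -0.023 and 0.35. MACROH2A1 changed by -0.20 in RD and 0.28 in JR1, and MACROH2A2, at under 1 TPM in both JR1 libraries, by -0.82 and 0.058. CCNE1 went the other way, by 0.32 in RD and -0.35 in JR1, and so did UPF1, by 0.051 and -0.12. The medians of all measured genes were -0.27 in RD and -0.21 in JR1.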

How the results depend on the processing

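Over 30 results, 162 values were computed under alternative settings, and 6 of them moved past their limit; no called value changed direction. All 6 concern the replacement genes. The number called lower in RD was 1 and became 0 after removal of the structural RNA genes and 0 after centring on the median of all measured genes. The number called lower in JR1 was 1 and became 0 and 0 under these settings, and 2 with a limit of 1.5-fold. With that limit 4 replacement genes were higher in RD than in JR1 shSCR cells, against 0. The share of all measured genes past the 1.5-fold limit was not computed, so these counts have no background beside them. The median of the replication-dependent genes stayed below 0 in both lines under each of the 14 alternative values, from -1.20 to -1.63 in RD and from -1.29 to -1.56 in JR1. Removal of genes with copied sequence, an alternative chosen after seeing the data, gave medians of -1.61 and -1.52. Removal of the structural RNA genes turned the sign of small medians in RD: replacement genes from -0.31 to 0.10, histone transcription from -0.24 to 0.12, 3′ end processing from -0.39 to 0.01 and decay from -0.31 to 0.03. The labels hold no replicate numbers, and a fit with the line as block, which would leave 1 residual degree of freedom, was not run. Depth and replicate spread are unknown.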
